A study of Arabidopsis thaliana with 24 samples.

Results

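Leaves of the Arabidopsis thaliana line acx1-2 (ACX) were compared with leaves of the wild type (WT) in the 0 h groups, which have no herbicide on record. The 12 arrays were chosen by their titles, which place 6 ACX and 6 WT arrays at 0 h, out of 24 Affymetrix ATH1 arrays in the study. Both genotypes were in the Col-0 background, and no 2,4-D, a synthetic auxin used as a herbicide, is recorded for either group. Plants grew on soil in long days, and leaves of like size and stage were taken, with no age in days given. Each replicate was a pool of leaves from at least 5 plants. ACX plants come from 1 insertion line, so an effect of the insertion in ACX1 and of any other change in that line cannot be told apart. The study's text describes solvent-sprayed controls at 1 and 72 h and states 3 replicates per condition, whereas the 0 h groups hold 6 arrays each. The sources used here do not say whether these arrays are those solvent controls, nor at what hour leaves were taken. The other 12 arrays were taken after 23 mM 2,4-D, 3 per genotype at 1 h and 3 per genotype at 72 h. Their levels are given below only where the genotype difference is set against its value at 0 h. They also entered the main fits, and so the spread behind the tests at 0 h, and the mean level of each probe set.

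ACX1 encodes an acyl-CoA oxidase of peroxisomes. This enzyme opens each round of fatty acid beta-oxidation and passes electrons to oxygen, which yields hydrogen peroxide. The same pathway shortens the precursors of jasmonate, a hormone of wounding and defence in leaves.

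Values are log2 expression levels per probe set, a group of probes for 1 transcript, and a difference of 1 on this scale is a 2-fold change. The annotation used here pairs no probe set with ACX1, so the mutated gene was not analysed here. Differences were tested with limma over 22746 probe sets, and a probe set is called where its Benjamini-Hochberg adjusted p is under 0.05. Array medians ran from 6.03 to 6.07 on ACX 2, ACX 3 and WT 4 to 6 and from 5.95 to 5.98 on the other arrays. Pearson's r between arrays over all probe sets was 0.974 to 0.993 within ACX and 0.975 to 0.997 within WT, and 0.965 to 0.987 between an ACX and a WT array. On the first principal component of the 12 arrays, which held 33.1% of the variance, ACX 3 and ACX 6 scored 43.9 and 43.3, the other ACX arrays -2.35 to 17.3, and WT arrays -27.2 to -6.43. Among WT arrays, WT 3 stood apart and scored -6.43 there and 36.6 on the second component, where the other WT arrays scored -25.7 to 11.9. Of 2 reference genes with a probe set, none was called, and RCA, the Rubisco activase that marks mesophyll, lay at 14.3 to 14.5 in ACX and 14.2 to 14.4 in WT.

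Between ACX and WT at 0 h, 1671 probe sets (7.35%) were called, 787 higher (3.46%) and 884 lower (3.89%) in ACX. Of these, 243 differed by at least 2-fold, 155 higher and 88 lower. The 6 ACX arrays all lay on 1 side of the 6 WT arrays at 762 probe sets (3.35% of those tested), of which 620 were called. Without ACX 3 and ACX 6 the count was 1101, without WT 1 it was 1085, and without WT 3 it was 2263. With the 0 h arrays alone in the fit it was 1146. Calls within the gene lists below are to be read against the shares of 7.35%, 3.46% and 3.89%, and most lists hold few genes.

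The calcium sensor gene CML41, the cell wall gene XTH18 and the peroxidase gene AT5G39580 were among the largest increases in ACX, and COR15A and COR15B were among the largest decreases. CML41, a calmodulin-like calcium sensor, had a lowest, median and highest value of 6.89, 7.70 and 8.03 in ACX, against 4.75, 5.15 and 5.46 in WT. All ACX arrays were above all WT arrays, with ACX 1 and ACX 4 the lowest of ACX. The difference was 2.40 ± 0.31 (SE, limma, adjusted p = 0.000108), a 5.29-fold higher level in ACX. XTH18, an enzyme that cuts and rejoins xyloglucan in the cell wall, ran from 8.76 over a median of 9.17 to 9.69 in ACX and from 6.79 over 7.27 to 7.86 in WT. The groups did not overlap, and ACX 3 and ACX 6 were the highest arrays. The difference was 1.96 ± 0.24 (SE, adjusted p = 5.73e-05).

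**Figure D1:**
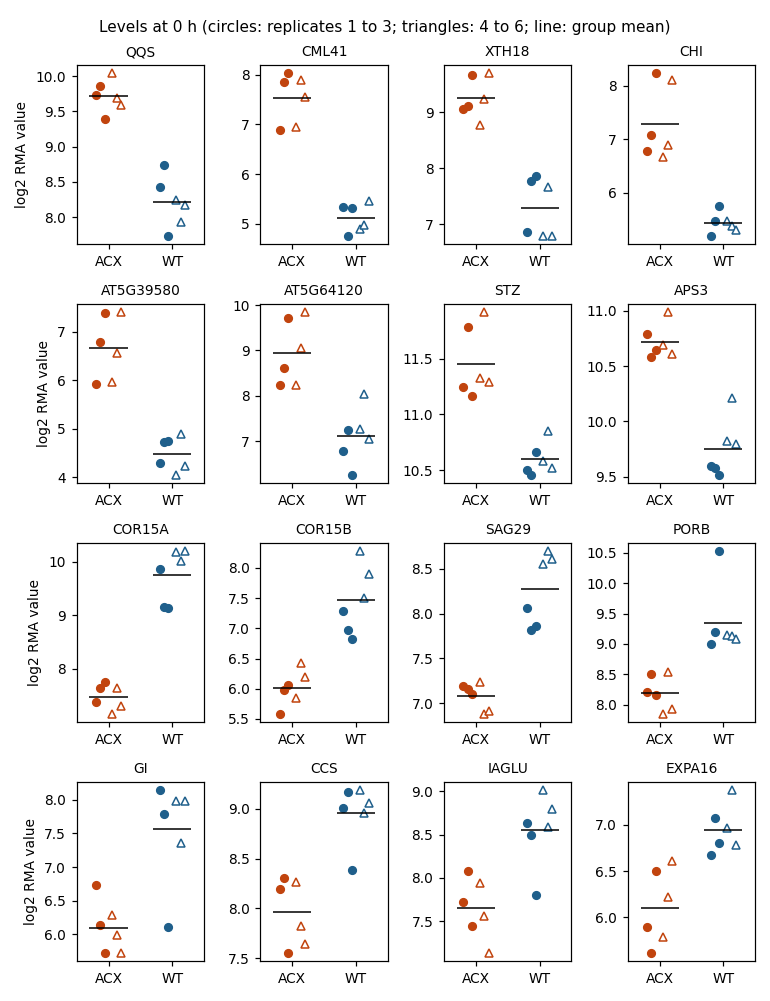
Level of 16 genes in each of the 12 arrays at 0 h, as log2 RMA values on axes that differ between panels, with ACX on the left and WT on the right. Circles are replicates 1 to 3, open triangles replicates 4 to 6 and lines group means of 6 arrays; ACX lies above WT without overlap in the first 8 panels, and in the GI panel WT 3 lies at 6.10 among the ACX arrays.

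Several genes of defence-related enzymes were highest in ACX 3 and ACX 6. CHI, a protein of the chitinase family, reached 8.23 in ACX 3 and 8.11 in ACX 6, the other ACX arrays lay between 6.66 and 7.07, and WT ranged from 5.19 to 5.75. The difference of 1.87 ± 0.55 (SE) passed the test (adjusted p = 0.0416), but fell to 1.43 without ACX 3 and ACX 6 and was then not called (adjusted p = 0.216). AT5G64120, which encodes peroxidase 71, had a lowest, median and highest value of 8.24, 8.84 and 9.84 in ACX and of 6.25, 7.14 and 8.03 in WT. No arrays overlapped, with ACX 3 and ACX 6 again on top, and the difference was 1.85 ± 0.36 (SE, adjusted p = 0.00321). AT5G39580, another class III peroxidase, lay at 5.93, 6.68 and 7.40 (lowest, median, highest) in ACX and at 4.04, 4.51 and 4.89 in WT, a difference of 2.18 ± 0.24 (SE, adjusted p = 2.21e-05).

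Class III peroxidases are secreted enzymes that use hydrogen peroxide on wall phenolics. Of 55 with a probe set, 4 rose and none fell in ACX. This share of 7.27% called is near the 7.35% over all probe sets, of which 3.46% were called higher and 3.89% lower. The median difference was 0.03, against -0.01 over all probe sets. Within replicates 1 to 3 alone 4 were called higher and 7 lower, and within replicates 4 to 6 alone 13 higher and none lower. The third called member with a large difference was AT4G33420 (1.59 ± 0.30 SE, adjusted p = 0.0023), which was highest in ACX 1, at 7.89. Of 32 calmodulin-like proteins, 8 rose and none fell, where 3.46% of all probe sets were called higher, and the median difference was 0.06. Within replicates 1 to 3 alone 9 were called higher and 2 lower, and within replicates 4 to 6 alone 2 higher and 1 lower. Beside CML41 these included CML30 (0.93 ± 0.17 SE, adjusted p = 0.00169) and CML42 (1.38 ± 0.42 SE, adjusted p = 0.0466). Without ACX 3 and ACX 6 the difference of CML42 was 0.68 and not called (adjusted p = 0.311). AT5G39670 and AT3G47480, which encode calcium-binding proteins of the EF-hand type, rose by 1.62 ± 0.37 and 1.60 ± 0.39 (SE, adjusted p = 0.0102 and 0.0142). Without ACX 3 and ACX 6 their differences were 1.36 and 1.22, and neither was called (adjusted p = 0.0605 and 0.0995). Both family lists were written with these results in view, so their counts are a description.

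Early touch and wound genes, which respond within minutes to mechanical or chemical stimuli, had 10 members with a probe set. Of these 4 rose and none fell, where 3.46% of all probe sets were called higher. CML41, given above, was the largest increase in the list (2.40) and so counts here and among calmodulin-like proteins. The median difference of the list was 0.91, against -0.01 over all probe sets. STZ, a zinc finger repressor also known as ZAT10, ran from 11.17 over a median of 11.31 to 11.92 in ACX and from 10.46 over 10.55 to 10.85 in WT. All ACX arrays lay above WT, with ACX 2 and ACX 5 the highest, and the difference was 0.86 ± 0.19 (SE, adjusted p = 0.0092). The U-box ubiquitin ligases PUB23 and PUB22 rose by 0.97 ± 0.22 and 0.82 ± 0.21 (SE, adjusted p = 0.0107 and 0.0212), and WT 5 overlapped with ACX for PUB22. PUB22 was not called without ACX 3 and ACX 6 (difference 0.69, adjusted p = 0.112). RING1, a RING-type ubiquitin ligase, was chosen outside that list with its value in view. It lay at 10.27 to 10.69 in ACX and at 8.69 to 9.70 in WT, and rose by 1.02 ± 0.17 (SE, adjusted p = 0.00126).

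Not every member of the touch and wound list was higher in ACX, and WRKY53 and ORA47 followed pairs of ACX arrays. WRKY53, a transcription factor of ageing and defence, lay at 8.19 and 8.49 in ACX 1 and ACX 4, at 9.77 and 9.79 in ACX 2 and ACX 5 and at 10.23 in both ACX 3 and ACX 6, against 8.55 to 9.92 in WT. ORA47, an ERF-type activator of jasmonate synthesis, lay at 9.15 and 9.02 in ACX 3 and ACX 6 and at 10.83 to 11.22 in the other ACX arrays, against 10.90 to 11.92 in WT. Its difference of -1.02 ± 0.34 (SE) did not pass the test (adjusted p = 0.0715).

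Few genes around the mutated step could be measured, and at 7.35% called over all probe sets so few genes would seldom hold a call. Of 4 peroxisomal beta-oxidation genes with a probe set (24 were listed, and the rest have none in the annotation used here) none was called, and their differences ran from 0.07 to 0.39. AIM1, a multifunctional protein of the beta-oxidation core, lay at 8.89, 8.95 and 9.06 (lowest, median, highest) in ACX and at 8.52, 8.84 and 9.11 in WT. The ranges overlapped, and the difference had a 95% confidence interval of -0.04 to 0.30. ICL, isocitrate lyase of the glyoxylate cycle, had an interval of -0.10 to 0.24, and SDP1, a lipase of storage oil, one of -0.04 to 0.81. The 3 genes of peroxisome division and photorespiration, including the fission gene BIGYIN (interval -0.23 to 0.37), were likewise not called. Neither was OPCL1, a CoA ligase that feeds jasmonate precursors into beta-oxidation, which lay at 10.04 to 10.88 in ACX and at 9.52 to 10.42 in WT. None of 2 jasmonate synthesis and none of 5 jasmonate signalling genes passed the test.

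Cold and dehydration genes were lower in ACX for the COR15 pair. COR15A, a chloroplast protein that protects membranes in the cold, had a lowest, median and highest value of 7.16, 7.51 and 7.76 in ACX, against 9.13, 9.93 and 10.19 in WT. No array overlapped, and WT 2 and WT 3 were the lowest of WT. The difference was -2.27 ± 0.29 (SE, adjusted p = 9.85e-05), a 4.82-fold lower level in ACX. COR15B, its close paralogue next to it on chromosome 2, differed by -1.45 ± 0.24 (SE, adjusted p = 0.000885), and no array overlapped. The probe sets of such near-identical genes may share signal. Of the other 2 members with a probe set neither was called, and COR47, a dehydrin, lay at 10.13 to 11.59 in ACX and 10.17 to 11.41 in WT.

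Clock, starch and sugar genes moved in both directions. GI, an evening gene of the circadian clock, lay at 5.72, 6.07 and 6.73 (lowest, median, highest) in ACX and at 6.10, 7.88 and 8.14 in WT. WT 3 alone lay within the range of ACX, and the next lowest WT array was at 7.36. The difference was -1.46 ± 0.26 (SE, adjusted p = 0.00146), and GI was the 1 called gene of 3 evening genes.

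QQS, a gene known to affect leaf starch, was higher in ACX at 9.39, 9.71 and 10.04 (lowest, median, highest), against 7.73, 8.21 and 8.75 in WT. The groups did not overlap, and the difference was 1.51 ± 0.17 (SE, adjusted p = 2.21e-05). Of 6 starch and sugar genes with a probe set (median difference -0.40) QQS alone rose and 3 fell: SAG29, the sugar exporter SWEET15 (-1.18 ± 0.32 SE, adjusted p = 0.024), APL3, a subunit of ADP-glucose pyrophosphorylase (-0.73 ± 0.21 SE, adjusted p = 0.0357), and PWD, the phosphoglucan water dikinase (-0.55 ± 0.13 SE, adjusted p = 0.0142). SAG29 lay at 6.88 to 7.24 in ACX and 7.82 to 8.69 in WT without overlap, whereas ACX and WT overlapped for APL3 and PWD. None of the 3 was called without ACX 3 and ACX 6 (adjusted p = 0.0806 for SAG29, 0.0987 for APL3 and 0.0815 for PWD). Their differences were then -1.15, -0.70 and -0.44, so those of SAG29 and APL3 changed little. The share called was 66.7% of the 6 genes, against 7.35% over all probe sets.

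PORB, CHL, CCS and GR were lower in ACX, and CHL was chosen with its value in view. PORB, which reduces protochlorophyllide in light and was the 1 called gene of 2 in chlorophyll synthesis, lay at 7.85, 8.18 and 8.54 (lowest, median, highest) in ACX and at 8.99, 9.14 and 10.52 in WT. The highest value was WT 3, the other WT arrays reached 9.20, and the difference was -1.15 ± 0.24 (SE, adjusted p = 0.00555). CHL, a lipocalin of the chloroplast, fell by 1.04 on the log2 scale (0.17 SE, adjusted p = 0.000916). CCS, the chaperone that loads copper onto superoxide dismutase, lay at 7.55 to 8.31 in ACX and 8.39 to 9.19 in WT, a difference with a 95% interval of -1.35 to -0.64 (adjusted p = 0.00122). The plastid glutathione reductase GR was the 1 called member of 5 antioxidant genes (-0.29 ± 0.09 SE, adjusted p = 0.0488). Its call was lost with each array centred on its median (-0.28, adjusted p = 0.0776) and without ACX 3 and ACX 6 (-0.19, adjusted p = 0.282). None of 8 photosynthesis genes was called, with differences of -0.20 to 0.07.

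Among 8 auxin genes 1 rose and 1 fell, a share of 25% called against 7.35% over all probe sets. WES1, the enzyme GH3.5 that joins auxin to amino acids, lay at 6.75, 7.01 and 7.26 (lowest, median, highest) in ACX and 5.41, 5.61 and 6.11 in WT. The groups did not overlap, and the difference was 1.27 ± 0.14 (SE, adjusted p = 2.12e-05). IAGLU, which joins auxin to glucose, lay at 7.13 to 8.08 in ACX and 7.81 to 9.01 in WT, and differed by -0.91 ± 0.18 (SE, adjusted p = 0.0035). Of 13 xyloglucan enzymes and expansins, XTH18 alone was called, a share of 7.69% that is near the 7.35% over all probe sets. XTH19, its neighbour in the same family, lay at 8.36 and 8.13 in ACX 3 and ACX 6 and at 6.19 to 6.69 in the other ACX arrays, against 6.62 to 8.80 in WT. It was not called over all arrays (-1.08 ± 0.41 SE, adjusted p = 0.118), but was called without ACX 3 and ACX 6 (-1.69, adjusted p = 0.0105). EXPA16, a wall-loosening expansin outside that list, fell by 0.84 on the log2 scale (0.19 SE, adjusted p = 0.0081).

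Some other called genes with known roles were higher in ACX. AT5G48570, the heat-inducible immunophilin FKBP65, lay at 6.89 to 7.58 in ACX and 5.05 to 5.62 in WT and rose by 1.88 ± 0.21 (SE, adjusted p = 2.52e-05). ATERDJ3B, a co-chaperone of the endoplasmic reticulum and the 1 called gene of 2 protein folding genes, rose by 0.63 ± 0.11 (SE, adjusted p = 0.00123). APS3, an ATP sulfurylase of sulfate assimilation, lay at 10.59 to 10.99 in ACX and 9.51 to 10.21 in WT and rose by 0.97 ± 0.10 (SE, adjusted p = 2.12e-05). GTR1, a glucosinolate transporter, rose by 0.71 ± 0.13 (SE, adjusted p = 0.00219) and was the 1 called gene of 3 in its list. None of 3 flavonoid genes was called, and of 5 reactive oxygen genes STZ alone rose.

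The remaining large changes without overlap were split between directions. AT3G55840, a gene of the Hs1pro-1 type, rose by 1.59 ± 0.22 (SE, adjusted p = 0.000187), and AT4G28085 and AT4G01390 rose by 1.81 and 1.51. Lower in ACX were AT2G30830, a 2-oxoglutarate-dependent dioxygenase (-1.54 ± 0.20 SE, adjusted p = 0.000108), and GIS, a zinc finger gene of trichome formation (-1.11 ± 0.16 SE, adjusted p = 0.000336). AT1G14200 lay at 6.57 to 7.14 in ACX and at 7.87 to 8.11 in WT, and differed by -1.19 ± 0.13 (SE, adjusted p = 2.21e-05).

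Cell type markers gave few values. The guard cell marker AT1G22690 lay at 10.89 to 11.25 in ACX and 9.67 to 10.57 in WT and was called (1.00 ± 0.26 SE, adjusted p = 0.0215). Without ACX 3 and ACX 6 its difference was 0.92 and not called (adjusted p = 0.0916). The other of 2 guard cell markers differed by 0.09 and was not called over all arrays. The mean of both was 8.92 to 9.05 in ACX and 8.19 to 8.73 in WT, a difference that comes mainly from AT1G22690. Neither of 2 stomatal lineage markers nor the trichome marker TRY was called, and TRY was lowest in ACX 6, WT 3 and ACX 3, at 6.40, 6.70 and 6.73. Their part in the other differences was not tested, and in whole leaves fewer cells of a type and less RNA per cell cannot be told apart.

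The genotype difference was then measured in replicates 1 to 3 and in replicates 4 to 6 separately. Within replicates 1 to 3 alone, 3327 probe sets (14.6%) were called between ACX and WT, and within replicates 4 to 6 alone 3557 (15.6%). Without WT 2 or ACX 3 the first count was 1495 or 1704, and without ACX 5, WT 4, WT 6 or ACX 6 the second was 1772, 1854, 1857 or 2079. With each array centred on its median, 1086 were higher and 2932 lower in ACX in replicates 1 to 3, against 1544 and 1783 as deposited, and 3108 higher and 1163 lower in replicates 4 to 6, against 1690 and 1867. Of the probe sets called in both, 334 (1.47% of those tested) were called in 1 direction, 157 higher and 177 lower in ACX in both, and 840 (3.69%) in opposite directions. Of the 840, 641 were lower in ACX in replicates 1 to 3 and higher in replicates 4 to 6, and 199 the reverse. Pearson's r between the 2 differences over 22746 probe sets was 0.21 and Spearman's rho -0.05, a description across probe sets measured on the same arrays.

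**Figure D2:**
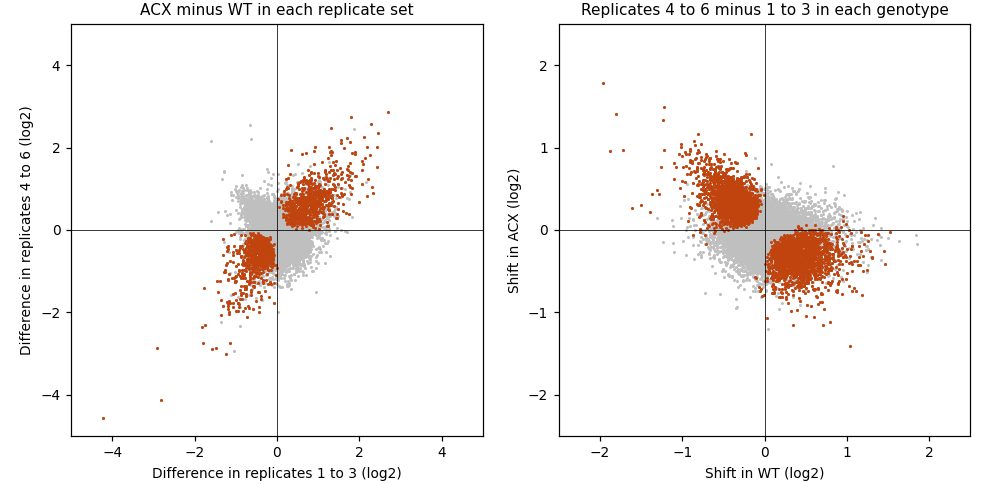
Left, ACX minus WT (log2) in replicates 4 to 6 against that in replicates 1 to 3, with the 1671 probe sets called over all 0 h arrays in orange and the rest of 22746 in grey. Right, the shift of replicates 4 to 6 against 1 to 3 (log2) in ACX against that in WT, with the 4437 probe sets called between the replicate sets in orange; these lie mainly where the 2 shifts have opposite signs.

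The difference between the sets was itself tested. The genotype difference in replicates 4 to 6 minus that in replicates 1 to 3 was called at 4437 probe sets (19.5%), 2423 positive (10.7%) and 2014 negative (8.85%). With each array centred on its median the split was 4226 positive and 1025 negative, so the balance of directions depends on the scaling. Shifts from replicates 1 to 3 to replicates 4 to 6 were called at 1237 probe sets (5.44%) in ACX and at 2359 (10.4%) in WT, and at 442 in ACX without ACX 5 and 845 in WT without WT 2. Where a shift was called in both genotypes, 609 probe sets shifted in opposite directions and 1 in the same direction. Over all probe sets the 2 shifts had opposite signs at 68.0%, with r = -0.49. In a comparison added after the data were seen, with ACX 1 to 3 set against WT 4 to 6, and ACX 4 to 6 against WT 1 to 3, the differences had r = 0.62, with 151 probe sets called in both in 1 direction and 1 in opposite directions. The crossed differences regroup the same set means as the shifts, so they restate the opposite shifts and are no separate support. In these means ACX 1 to 3 lay closer in this respect to WT 4 to 6 than to the WT arrays of the same numbers. The labels do not say what the replicate numbers share, and whether arrays were handled in other groupings than their numbers was not tested.

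The disagreement lay mostly at low signal. In the lowest quartile of probe sets by mean level (3.31 to 4.56), 25.7% were called between the sets, and r between the differences of the 2 sets was -0.65. In the second quartile 27.2% were called, with r = -0.15. In the third 16.4% were called, with r = 0.38, and in the highest quartile, from 7.94 upwards, 8.76%, with r = 0.57. The calls over all 12 arrays ran the other way, at 0.369%, 4.47%, 11.0% and 13.6% from the lowest to the highest quartile.

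Plastid-encoded genes were among those that disagreed between the sets. Of 69 with a probe set, none was called over all 12 arrays, where 7.35% of all probe sets were called. Between the sets 30 (43.5%) were called, 17 positive and 13 negative, against 19.5% of all probe sets. psbD, which encodes the D2 protein of photosystem II, lay at 10.06 to 10.87 in ACX 1 to 3 and at 11.83 to 12.53 in ACX 4 to 6. In WT it lay at 11.88 to 12.16 in replicates 1 to 3 and at 9.65 to 10.50 in replicates 4 to 6. The sets did not overlap within either genotype and moved in opposite directions. The set difference of ACX minus WT was -1.59 in replicates 1 to 3 and 2.16 in replicates 4 to 6, and these differed by 3.76 (adjusted p = 0.000122), whereas the difference over all arrays was 0.29 ± 0.48 (SE, adjusted p = 0.836).

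psbC, next to psbD in the same transcription unit, moved the same way: the set differences were -1.28 and 1.41. Of the ATP synthase genes in 1 transcription unit, atpA had set differences of -0.63 and 2.21 and atpF of -0.66 and 2.54. These neighbours are not independent examples. The ribosomal protein genes rpl36 and rps16 moved the other way, with differences of 0.94 and 0.76 in replicates 1 to 3 and of -1.51 and -0.80 in replicates 4 to 6.

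**Figure D3:**
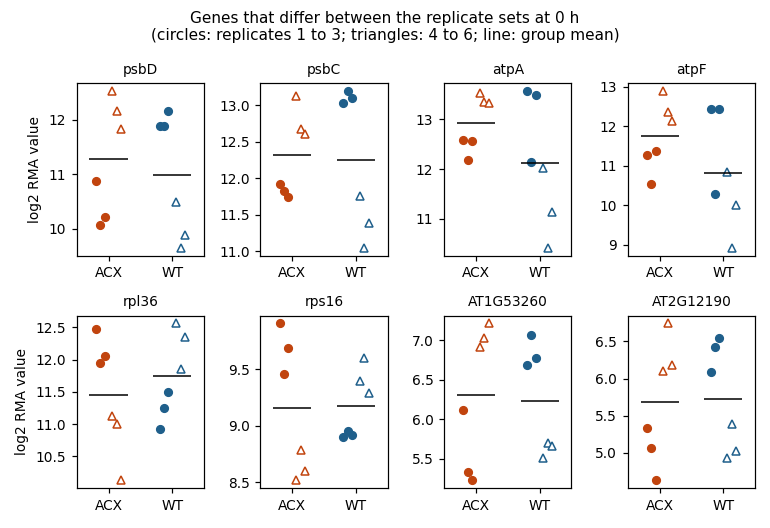
Levels (log2 RMA) of 6 plastid and 2 nuclear genes in each 0 h array, ACX on the left and WT on the right, on axes that differ between panels. Circles are replicates 1 to 3, open triangles replicates 4 to 6 and lines means of 6 arrays; for psbD the circles lie below the triangles in ACX and above them in WT.

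Nuclear genes differed between the sets too. AT1G53260 lay at 5.23 to 6.12 in ACX 1 to 3 and at 6.92 to 7.21 in ACX 4 to 6, against 6.69 to 7.07 in WT 1 to 3 and 5.51 to 5.69 in WT 4 to 6. AT2G12190 shifted by 1.33 in ACX and by -1.24 in WT. TET2, a tetraspanin of the cell membrane, shifted in WT (1.31, adjusted p = 0.0014), while its shift in ACX was -0.33 (adjusted p = 0.377). By contrast, some named genes had like differences in both sets. CML41 differed by 2.46 in replicates 1 to 3 and 2.35 in replicates 4 to 6, and STZ by 0.86 in both. WES1 differed by 1.18 and 1.36, and AT1G14200 by -1.19 and -1.18. AT5G39670 (2.34 and 0.90) and AT4G33420 (2.07 and 1.11) were less alike, though neither was called between the sets. A call over all arrays favours such agreement, and all 1671 had the same sign in both sets. Of these, 333 were called in both sets in 1 direction and 300 in neither. APL3 was called between the sets, with -0.13 in replicates 1 to 3 and -1.32 in replicates 4 to 6 (adjusted p of the difference 0.0186).

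ACX arrays also resembled each other in pairs across the sets. After each array was expressed as its deviation from the mean of its genotype and set, ACX 1 correlated with ACX 4 (r = 0.63 over probe sets), ACX 2 with ACX 5 (0.45) and ACX 3 with ACX 6 (0.80), and every other ACX pair between the sets had r between -0.67 and 0.19. In WT the corresponding pairs had r of 0.20, -0.27 and -0.28. Other WT pairs between the sets were more alike, at 0.36 for WT 3 with WT 5 and 0.25 for WT 2 with WT 6. The labels do not say that ACX arrays share plants, RNA or a harvest. If each such pair counts as 1 sample, ACX has 3 samples instead of 6. With the pairs averaged and set against the 6 WT arrays, 572 probe sets were called, 264 higher and 308 lower in ACX.

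**Figure D4:**
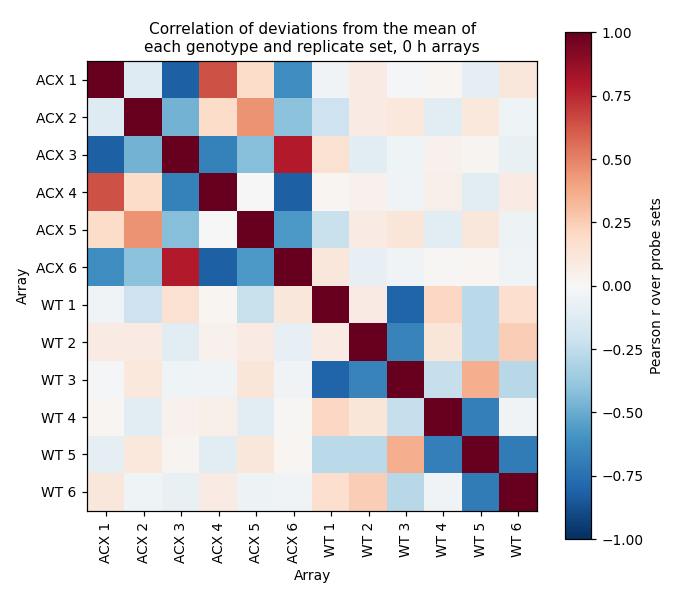
Pearson's r over 22746 probe sets between the 12 arrays at 0 h, ACX first, each array taken as its deviation from the mean of its genotype and replicate set. Apart from the diagonal, the reddest cells are ACX 3 with ACX 6 (0.80) and ACX 1 with ACX 4 (0.63); negative r within a set follows in part from subtracting its own mean.

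Of the 44 genes named with a value and called over the 12 arrays, 13 were not called with the ACX pairs averaged. These were CHI, CML42, AT3G47480 and AT5G39670 among calcium and defence genes, STZ, PUB22 and PUB23 among touch genes, SAG29, APL3 and PWD among starch and sugar genes, and PORB, GR and AT1G22690. Their adjusted p then ran from 0.0566 for PORB to 0.183 for CHI. CML41, XTH18, AT5G39580, COR15A, COR15B, GI, QQS, WES1, AT5G48570, APS3 and AT1G14200 were still called, with adjusted p of 0.00431 for CML41, 0.00498 for COR15A and 0.0229 for GI.

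Some calls at 0 h were also lost with 1 array left out. A gene that lost its call at several different arrays was not tied to any single one. With each of the 12 arrays at 0 h left out in turn, the call was lost in 10 cases for GR, 9 for CHI, 8 for CML42, 7 for APL3, 5 for PUB22, 4 for SAG29 and 1 for AT1G22690, at adjusted p of 0.0505 to 0.123. These included the case without ACX 5 or without ACX 6 for all of them but AT1G22690, which lost its call without WT 2.

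The 0 h differences were then set against those in herbicide-treated leaves, measured on other arrays. Between ACX and WT, 8 probe sets (0.0352%) were called at 1 h and 635 (2.79%) at 72 h, with 3 arrays per group. Of the 1671 calls at 0 h, 3 were also called at 1 h in the same direction and 2 in the opposite direction, and at 72 h 23 in the same and 74 in the opposite direction. The sign was the same at 1 h for 65.5% of them, against 58.3% of all probe sets, and at 72 h for 37.5%, against 48.0%. The test of the genotype difference at 1 h minus that at 0 h called 33 probe sets (0.145%), and at 72 h minus 0 h it called 1362 (5.99%). These tests share the 0 h arrays with the comparison at 0 h. Leaving out 1 treated array moved the count at 1 h to between 4 and 14 and that at 72 h to between 209 (without WT 72 h replicate 1) and 865.

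Genotype separated all 24 arrays at 3 probe sets. QQS was 1 of them, with differences of 1.51 at 0 h, 1.86 at 1 h and 1.49 at 72 h. At 1 h it lay at 9.97 to 10.32 in ACX and 8.19 to 8.30 in WT, and at 72 h at 9.22 to 9.55 in ACX and 7.25 to 8.40 in WT. The others, 245249_at and 249898_at, have no gene in the annotation used here. At 0 h 245249_at lay at 5.40 to 5.73 in ACX and at 9.45 to 10.17 in WT, a difference of -4.41 ± 0.11 (SE, adjusted p = 4.05e-17). For 249898_at the 0 h difference was -2.89 ± 0.18 (SE, adjusted p = 3.56e-09).

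Most leading genes did not keep their 0 h difference. COR15A, lower in ACX at 0 h, lay at 7.08 to 7.79 in ACX and 6.69 to 7.25 in WT at 1 h, and at 8.68 to 10.56 in ACX and 8.61 to 10.18 in WT at 72 h. Its genotype difference was higher by 2.74 at 1 h (adjusted p = 0.0286) and by 2.87 at 72 h (adjusted p = 0.00186) than at 0 h. AT5G48570, higher in ACX at 0 h, lay at 5.79 to 6.67 in ACX and 6.80 to 8.38 in WT at 72 h, where it was called lower in ACX (-1.36, adjusted p = 0.0157). APS3 was likewise called lower in ACX at 72 h (-0.60, adjusted p = 0.0268), and AT2G47780, lower at 0 h (-1.14 ± 0.16 SE), was called higher at 72 h (1.40, adjusted p = 0.00132). CCS was called lower in ACX at 72 h as well (-0.89, adjusted p = 0.048).

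**Figure D5:**
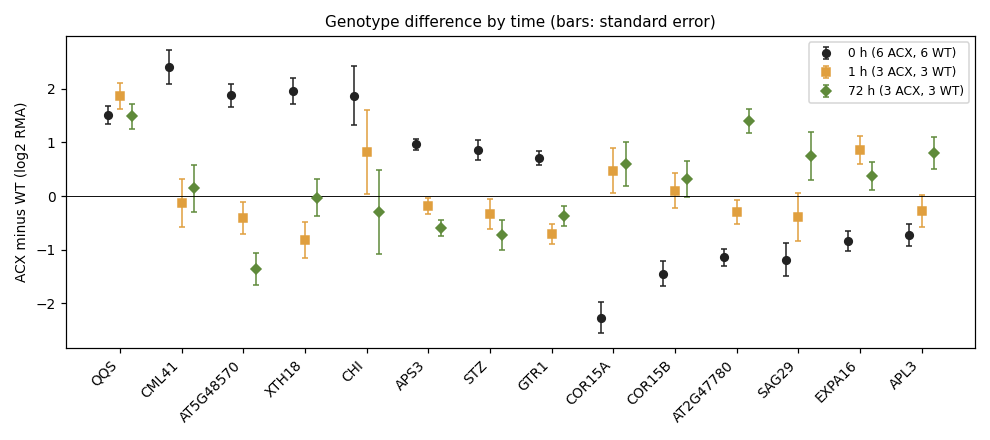
Genotype difference, ACX minus WT in log2 RMA units, of 14 genes at 0 h (6 arrays per genotype) and at 1 h and 72 h after 2,4-D (3 per genotype), with standard errors from the fit as bars. QQS stays between 1.49 and 1.86 at the 3 times, while COR15A is -2.27 at 0 h, 0.47 at 1 h and 0.60 at 72 h.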

How the data were processed

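Leaf RNA was hybridised to 1-colour Affymetrix ATH1 arrays. The authors deposited log2 expression values per probe set. RMA and limma are the tools named in the submitters' processing notes; the sources used here do not give their versions or settings, or say if all arrays went through RMA as 1 batch. RMA compresses differences of dim probe sets, and its quantile step gives arrays nearly the same distribution. The number of arrays limits the precision.

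Of 22810 probe sets, 64 Affymetrix controls were left out. The platform annotation gave 1 gene to 13513, several to 503 and none to 8730, which stay unnamed. Symbols were updated through gene identifiers to RefSeq (TAIR10.1) for 13436. With several probe sets per gene, the one with the highest mean over 24 arrays was used.

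limma 3.58.1 in R 4.3.3 fitted 6 group means to all 24 arrays (18 residual degrees of freedom), and 8 means, with the 0 h groups split into replicates 1 to 3 and 4 to 6, for comparisons of the sets. p-values are two-sided and adjusted within each of 10 comparisons. They measure the spread between arrays, which may be partly technical. The fits were tested on simulated data.

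Comparisons, gene lists and alternatives were chosen with earlier results of these data known. Genes were named as the 12 largest called changes each way without overlap, the 6 largest differences each way between the sets and within each genotype, up to 5 members per list, and probe sets separating all arrays by genotype; a subset is given. EXPA16, CHL, APS3, RING1, CML30 and CML42 were chosen after their values were seen. Lists on salicylate, abscisic acid, nutrient supply, epidermis, phloem, xylem, root, flower and dividing cells had no named probe set and were not analysed here; the 1 morning clock gene and 2 senescence genes gave SAG29 as the single call. No sequences are shown. Alternatives covered scaling, filters, the prior, weights, blocks, subsets and single arrays left out.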

Additional observations from a re-analysis of the deposited data

Results flagged for a closer look

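In 8 of 128 groups of 6 arrays looked at for the named genes, 1 array lay far from the nearest other, a gap that chance gives in about 5% of groups. WT 3 was this array in 7 of them: COR47 (10.17, the others 11.10 to 11.41), PORB (10.52, the others 8.99 to 9.20), CCS (8.39, the others 8.96 to 9.19), RING1 (8.69, the others 9.36 to 9.70), WRKY53 (8.55, the others 9.50 to 9.92), AT2G30830 (4.92, the others 6.38 to 6.74) and TRY (6.70, the others 8.25 to 8.47). For AT1G14200 it was WT 1 (7.87, the others 8.02 to 8.11).

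The genotype difference itself changed between 0 h and treated leaves for 8 named genes at 1 h and 29 at 72 h (limma, Benjamini-Hochberg adjusted p under 0.05). At 1 h minus 0 h the change was 2.74 for COR15A, 1.70 for EXPA16, 1.13 for AT1G14200, -2.77 for XTH18, -2.29 for AT5G48570, -1.92 for AT3G55840, -1.42 for GTR1 and -1.15 for APS3.

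At 72 h minus 0 h, genes that were higher in ACX at 0 h had negative changes. They were -3.24 for AT5G48570, -2.89 for AT5G64120, -2.27 for AT5G39580, -2.26 for CML41, -1.99 for XTH18, -1.97 for AT1G22690, -1.89 for AT4G33420, -1.75 for AT3G55840, -1.60 for RING1, -1.59 for both STZ and PUB22, -1.57 for APS3, -1.46 for PUB23, -1.16 for both WES1 and CML30, -1.09 for GTR1 and -0.86 for ATERDJ3B. Genes that were lower in ACX at 0 h had positive changes. They were 2.87 for COR15A, 2.54 for AT2G47780, 1.94 for SAG29, 1.77 for COR15B, 1.62 for AT5G41900, 1.53 for APL3, 1.50 for AT1G76620, 1.46 for AT2G30830, 1.45 for AT2G25530, 1.21 for EXPA16, 1.14 for AT3G56080 and 0.89 for AT1G14200. The 0 h value enters each of these changes, and most of these genes were chosen for a large difference at 0 h.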

How the results depend on the processing

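Of 64 named genes, 44 were called between ACX and WT at 0 h, and 13 of these stayed called under every alternative run. The other 31 lost the call under at least 1, and 15 genes not called were called under at least 1. Of 1785 gene values, 1586 kept their direction and side of the threshold. For 6 genes not called over all arrays, 1 replicate set alone gave a call of the opposite sign: with replicates 1 to 3 only it was -1.59 for psbD, -1.28 for psbC, -1.29 for AT1G53260, 0.94 for rpl36 and 0.76 for rps16, and with replicates 4 to 6 only 1.23 for AT2G12190.

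The 1671 calls at 0 h became 243 with a 2-fold minimum, 2691 with replicates 1 to 3 only, 4184 with replicates 4 to 6 only, 1101 without ACX 3 and ACX 6 (the other 22 arrays fitted), and 572 with ACX arrays averaged in pairs, an alternative chosen after seeing the data. With the sets crossed they were 924 (ACX 1 to 3, WT 4 to 6) and 493 (ACX 4 to 6, WT 1 to 3). In the fit of 8 means the crossed comparisons, also added after seeing the data, gave 634 and 622 calls, 151 shared in 1 direction and 1 in opposite directions, with r = 0.62 over probe sets. Same-numbered ACX and WT arrays had r from -0.22 to -0.02 as deviations from the mean of their genotype. The opposite shifts of the sets in ACX and WT enter these r, so they cannot decide whether the numbers pair the arrays. As deviations from the mean of genotype and set, r ran from -0.05 to 0.11. A fit to the 0 h arrays only gave 1146 calls, and the same fit with the replicate number as a block 639. With the replicate set as a block, CHI, CML42 and GR were not called (adjusted p 0.0503, 0.0556 and 0.0503).

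Without the probe sets below the median level, calls were 1266 in replicates 1 to 3, 1529 in replicates 4 to 6, 860 between the sets, 80 for the shift in ACX and 578 for that in WT. Without the lowest 25% they were 2547 between the sets, 568 for the ACX shift and 1431 for the WT shift. Array weights gave 7019 calls in replicates 4 to 6, 2499 for the ACX shift and 4222 for the WT shift, and a fit to the 0 h arrays only gave 438 and 1201 for the 2 shifts. Centring gave 2044 for the ACX shift (1798 positive, 246 negative, against 793 and 444) and split the WT shift into 710 and 2246, against 1052 and 1307. The causes were not tested.

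Leaving out 1 array at a time gave 1085 to 2263 calls at 0 h, 1495 to 3537 in replicates 1 to 3, 1772 to 3900 in replicates 4 to 6, 3366 to 4662 between the sets, 442 to 1298 for the ACX shift and 845 to 3067 for the WT shift. At 1 h it gave 4 to 14, at 72 h 209 to 865, and for the change of the genotype difference 6 to 44 (1 h) and 705 to 1625 (72 h).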
